A study of Chlamydomonas reinhardtii with 31 samples.

Results

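A late rise without an early one was rare under the rule used here. In the green alga Chlamydomonas reinhardtii, 10 of 17301 listed genes met it in both CC-4349 and the starchless mutant sta6. At 2 and 4 h without nitrogen they stood at no more than 2 times their starting level, many of them below it. Their mean of 24 and 48 h was at least 4 times that level. These ratios were taken with 1 added to each expression value. With equal library medians 3 of the 10 still met the rule, and with quantile normalization also 3. When nitrogen runs out, this alga stops dividing, recycles ribosomes and photosynthetic proteins, stores starch and triacylglycerol, and turns into gametes able to mate. Oil storage and gamete formation take many hours, and transcripts that change only then are set apart here from those of the first response. The STA6 gene encodes the small subunit of ADP-glucose pyrophosphorylase, the enzyme that makes the glucose donor for starch, so sta6 cells form no starch and are known for storing more oil.

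RNA was sequenced from cultures grown in the light in acetate medium with ammonium, then washed and resuspended in the same medium without ammonium. The first library set held CC-4349, which the design text calls wild type, and sta6 (CC-4348), with samples at 0, 0.5, 2, 4, 8, 12, 24 and 48 h. In the second set the same strains were sampled at 0.5, 4 and 48 h only, together with 3 others that carry STA6 and are referred to as rescued strains: STA6-C2 (CC-4565), STA6-C4 (CC-4566) and STA6-C6 (CC-4567). That set had no 0 h sample. Each strain, time and set had 1 sample. First-set samples had 2 columns each, averaged here as repeat runs, and no source used here says whether those columns, or the samples, came from separate cultures. All samples came from transfer to medium without nitrogen, and no culture kept in ammonium over the same hours was analysed here. In such bulk RNA, more transcript per cell and more cells with the transcript cannot be told apart.

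Members were chosen on the first set alone, with paired columns of a sample averaged and 1 added to each FPKM value (reads per gene length and sequencing depth). A gene had to lie at 2 and 4 h at no more than 2 times its 0 h value, and its mean of 24 and 48 h had to reach 4 times the 0 h value and at least 5 FPKM, in both strains. The limit of 300 genes was not reached. These first-set values chose the genes and are given as a description without a test. The late rise itself was common, with 576 genes meeting it in both strains, but 566 of these were already more than 2 times above 0 h at 2 or 4 h in at least 1 strain. The 10 members made up 1.74% of genes with the late rise. Whatever the other strain did, 68 genes met all conditions in CC-4349 and also 68 in sta6, each number including the 10 members. The median of all expressed genes was itself higher in the first set by between 0.38 and 0.65 (log2) at 2 and 4 h than at 0 h, and this shift enters the early limit. At 24 and 48 h it was higher by 0.60 and 0.61 in CC-4349 and by 0.38 and 0.38 in sta6, so the late ratio carries the shift too. With equal library medians 269 genes had the late rise and 11 of them (4.09%) met the rule, of which 3 were among the 10. With quantile normalization the late rise held for 354 genes and the number meeting the rule was also 11 (3.11%), again with 3 shared. The gene Cre12.g492600.t1.1 met the rule under each of the 8 other settings tried for the rule, while the other members met it under 3 to 6 of them.

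**Figure D1:**
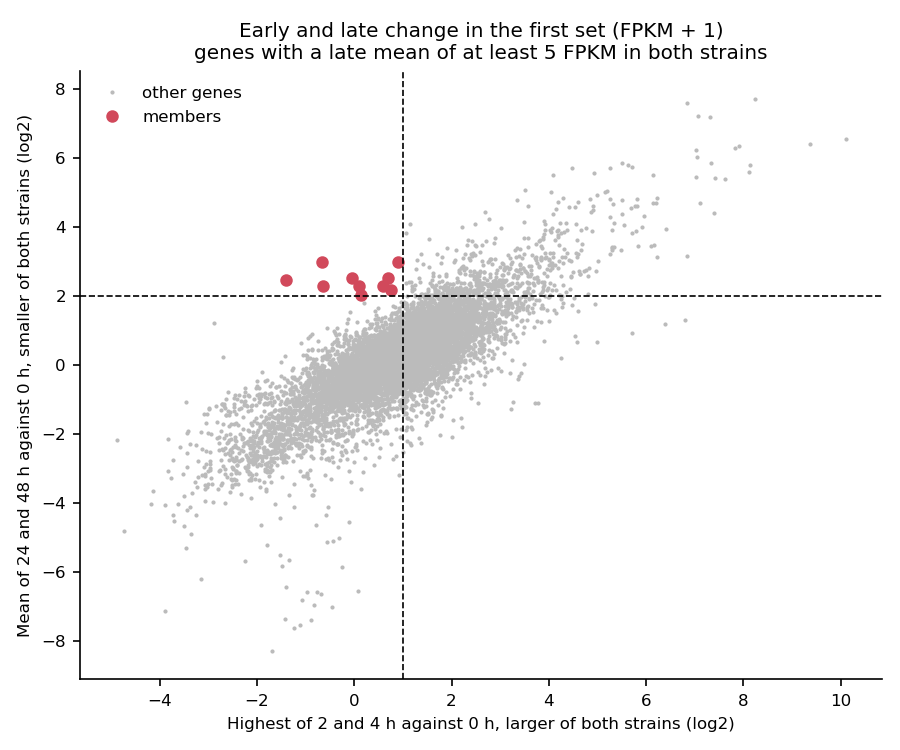
Each point is a gene with a late mean of at least 5 FPKM in both first-set strains. The horizontal axis is the larger early ratio to 0 h of both strains and the vertical axis the smaller late ratio, both log2 of FPKM + 1. Dashed lines mark the limits of 2 times (early) and 4 times (late), and the 10 members are the points at the upper left, apart from the 566 genes with a late rise that lie to the right of the early limit.

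Just inside the late limit lay Cre03.g200450.t1.1 and Cre03.g190850.t1.1, whose smaller late ratio was 4.07 and 4.50 times 0 h. Just outside lay Cre05.g239300.t1.2 at 3.53 times and Cre16.g660250.t1.2 at 3.48 times. The nearest to the early limit was Cre09.g400515.t1.1, with a largest early ratio of 1.86. This ratio depends on the 1 added. In FPKM the gene went from 0.577 at 0 h to 1.93 at 4 h in CC-4349, and from 0.111 at 0 h to 0.728 at 2 h in sta6. With 0.1 added in place of 1, 9 of the 10 members met the rule and this gene did not. No file or reference table used here pairs these IDs with a gene name or product, so no member is given a role. Of the 10 IDs, 7 matched a locus tag of the Chlamydomonas_reinhardtii_v5.5 assembly.

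The rule set no lower limit for the early hours. At 2 h, 8 of 10 members lay below their 0 h value in both strains, at a median of 0.677 times 0 h in CC-4349 and 0.630 times in sta6, whereas the median expressed gene stood at 1.56 and 1.30 times. At 4 h 4 members were below 0 h in both strains. The rule capped the 2 and 4 h values, so part of this low position follows from the choice. At 8 h all 10 were higher than at 4 h in both strains, which a choice of low early and high late values also favours. At 8 h 3 members were at least 2 times above 0 h in both strains, at 12 h this held for 6, and the other 4 reached that level in both strains only at 24 h. Taken alone, CC-4349 had 5 members at that level at 8 h and sta6 6, beside 35.3% and 26.4% of expressed genes. At 12 h the numbers were 8 and 7, beside 35.7% and 27.1%. Shares of all genes for both strains together are not given here, so the counts only describe the members' order in time. The 48 h value exceeded that at 24 h for all 10 in CC-4349 and for 7 of 10 in sta6. The rule used both times, and the share of all genes is not given, so these counts too only describe the members. The median expressed gene stood at 1.51 and 1.53 times 0 h at 24 and 48 h in CC-4349. In sta6 it stood at 1.30 times at both.

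The 3 members that had passed 2 times the 0 h value by 8 h in both strains were Cre03.g190850.t1.1, Cre12.g496400.t1.2 and Cre19.g757150.t1.2. Cre03.g190850.t1.1 had the highest 0 h level of the members in both strains. Over the 8 times from 0 to 48 h it stood at 29.1, 47.1, 16.1, 50.1, 89.8, 124, 137 and 166 FPKM in CC-4349. In sta6 the same times gave 29.3, 10.8, 4.04, 34.7, 164, 149.8, 158 and 113 FPKM. It dipped at 2 h in both strains, most deeply in sta6, and in sta6 its highest value came at 8 h, with a lower one at 48 h. Cre12.g496400.t1.2 gave 3.10, 1.90, 2.06, 4.21, 15.8, 19.7, 21.7 and 23.3 FPKM in CC-4349 over these times. In sta6 it gave 2.18, 4.20, 1.61, 4.15, 12.0, 13.6, 17.2 and 20.2 FPKM. Most of the rise in either strain had taken place by 12 h. The second of its 2 sta6 columns was lower than the first at 8 of 8 times, by -0.97 (log2) on average. At 4 h the CC-4349 columns read 1.04 and 7.38 FPKM. Cre19.g757150.t1.2 went from 13.15 to 68.6 FPKM between 0 and 12 h in CC-4349 and stayed at 76.4 and 76.7 FPKM at 24 and 48 h. In sta6 it moved from 6.04 to 18.2 and then to 35.8 FPKM at 0, 12 and 48 h. Its CC-4349 columns at 4 h also disagreed, at 5.27 and 25.8 FPKM, so meeting the early limit in CC-4349 rests on their mean.

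By 12 h Cre09.g400515.t1.1, Cre12.g492600.t1.1 and Cre16.g649425.t1.1 had also passed 2 times the 0 h value in both strains. Cre12.g492600.t1.1 read 11.0, 6.45, 3.33, 6.64, 26.2, 35.3, 91.3 and 97.0 FPKM over the 8 times in CC-4349. Its sta6 values were 1.93, 0.682, 0.489, 0.738, 3.16, 5.89, 51.2 and 34.5 FPKM. In both strains it lay below the 0 h value until 4 h and its largest step in FPKM came between 12 and 24 h. On the FPKM + 1 ratio scale the step from 4 to 8 h in CC-4349, from 0.636 to 2.26 times 0 h, was larger than that from 12 to 24 h, from 3.02 to 7.68 times. Cre16.g649425.t1.1 read 4.76 FPKM at 0 h and 0.464 FPKM at 2 h in CC-4349, then 17.1 FPKM at 12 h and 29.0 FPKM at 48 h. In sta6 it read 0.275 FPKM at 0 h and 5.998 FPKM at 48 h. Cre09.g400515.t1.1 started at or near 0, with 0.577, 0, 1.02, 1.93, 2.14, 4.97, 7.03 and 15.8 FPKM in CC-4349. The sta6 series was 0.111, 0.388, 0.728, 0.216, 3.24, 4.38, 15.7 and 53.2 FPKM. It was listed at 0 in at least 1 column of CC-4349 at each of 0, 0.5, 2 and 4 h, and was higher at each later time than at the time before in both strains.

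The latest courses were those of Cre03.g200450.t1.1, Cre06.g299800.t1.1, Cre11.g474600.t1.1 and Cre15.g635100.t1.1. Cre11.g474600.t1.1 read 2.67, 0.287, 0.11, 0.395, 0.653, 2.18, 13.0 and 25.2 FPKM over the 8 times in CC-4349. In sta6 it read 2.42, 5.23, 0.123, 0.227, 6.67, 10.9, 57.8 and 181 FPKM. It was above 2 times the 0 h value by 8 h in sta6 and still below its 0 h value at 12 h in CC-4349. Cre06.g299800.t1.1 showed the opposite order, at 0.977, 0.854, 0.710, 0.921, 7.31, 10.4, 15.4 and 22.0 FPKM in CC-4349. Its sta6 values were 1.71, 0.197, 0.124, 0.107, 1.14, 2.40, 11.7 and 17.3 FPKM, so its 12 h value was 5.77 times that at 0 h in CC-4349 and 1.26 times in sta6 (FPKM + 1). This difference in timing rests on 1 sample per strain and time and was not tested. Cre03.g200450.t1.1 dipped at 0.5 h and then climbed at each time, ending at 16.1 FPKM in CC-4349 (2.77 at 0 h) and at 25.2 FPKM in sta6 (3.87 at 0 h). Cre15.g635100.t1.1 went from 1.32 to 11.7 FPKM in CC-4349 over the same span, and in sta6 from 1.03 FPKM to 12.2 at 24 h and 8.92 at 48 h.

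**Figure D2:**
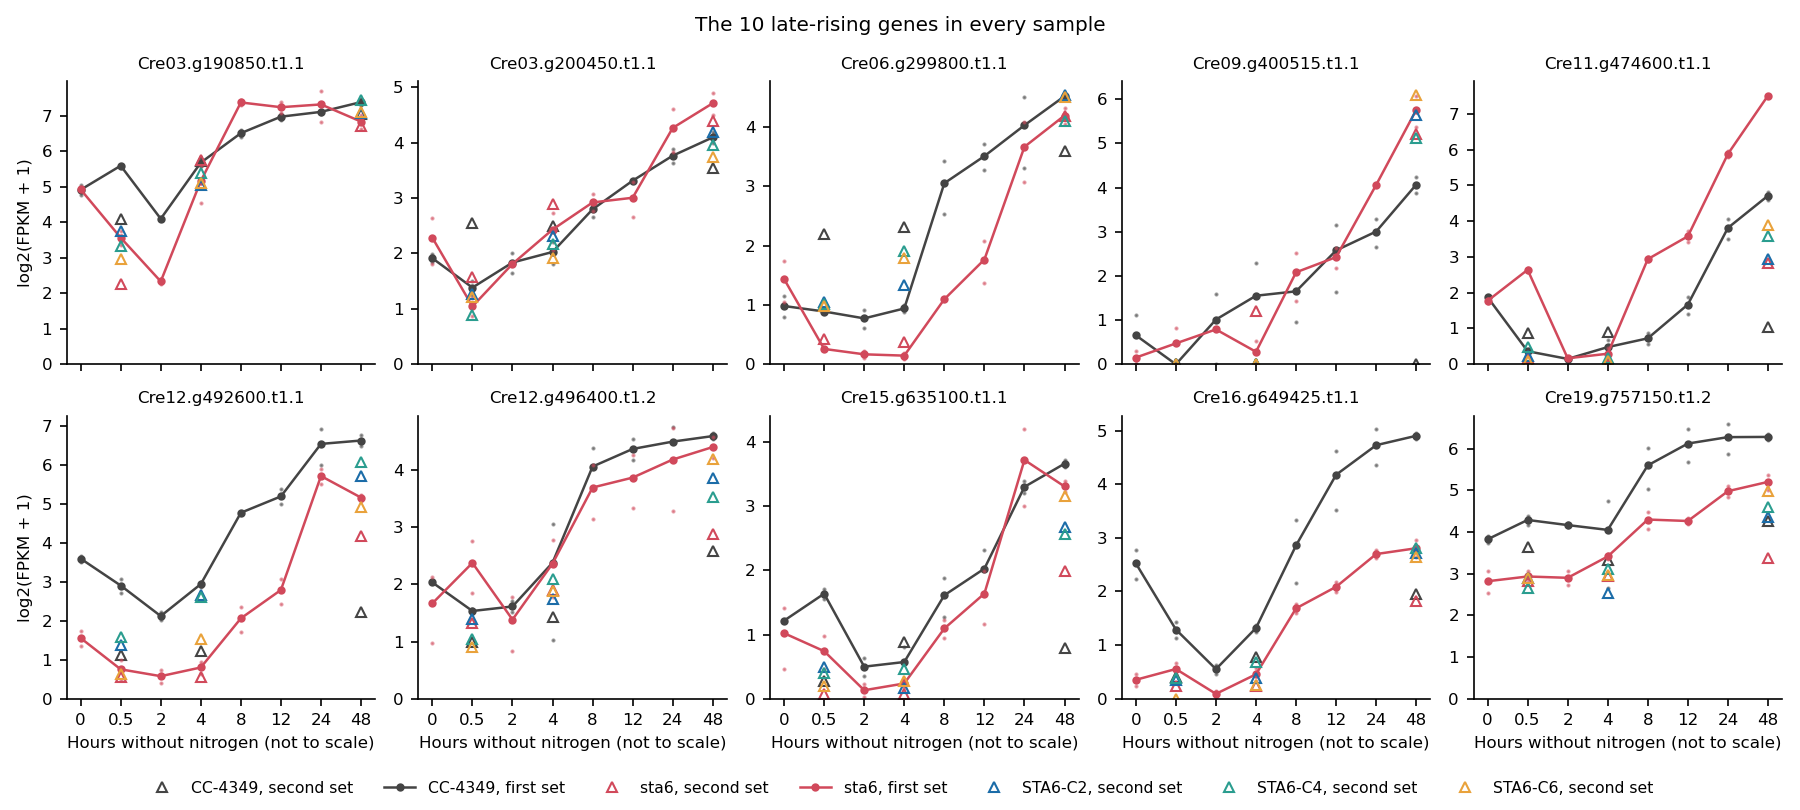
Each panel is a member, with hours without nitrogen on the horizontal axis (evenly spaced, not to scale) and log2(FPKM + 1) on the vertical axis. Lines join first-set samples of CC-4349 and sta6, small dots are their paired columns, and open triangles are second-set samples of the 5 strains. The lines lie higher at 24 and 48 h than at 4 h in all 10 panels, and so do the triangles of the rescued strains at 48 h. In sta6 the lines of Cre03.g190850.t1.1, Cre12.g492600.t1.1 and Cre15.g635100.t1.1 end lower at 48 h than at 24 h. The CC-4349 line may not be on the gene-by-gene scale of the triangles, and its levels are not set against them.

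First-set levels of CC-4349 are not set against those of sta6 or of the second set here. Among low genes, whose values are small multiples of the value of 1 read, the most common ratio between columns was shared by a median of 8.51% of genes for column pairs within the second set and by 7.94% when first-set sta6 was paired with it. With CC-4349 columns of the first set, this share was 3.65% against sta6 of that set and 3.37% against second-set columns. The ranges over column pairs overlapped, at 1.78 to 7.95% for first-set CC-4349 with first-set sta6 and 4.09 to 12.2% for the second set with first-set sta6. Why the share was lower with first-set CC-4349 was not tested. Between columns within first-set CC-4349 its median was 10.4%. A factor particular to a gene in these columns would enter ratios between times within the strain only through the 1 added to each value. Of the 160 first-set values of members, 17 came from paired columns that differed by more than 1 (log2), in 7 of the 10 genes.

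The second set was not used to choose the genes, so the late change could be tested there, with the 5 strains standing for replicates of a time. All 10 members were higher at 48 h than at 4 h (limma, adjusted p from 7.64e-06 to 0.000941), against 23.8% of all 14982 tested genes called higher and 28.0% called lower. The fit kept genes with at least 1 FPKM in at least 3 libraries. Cre11.g474600.t1.1, Cre15.g635100.t1.1 and Cre16.g649425.t1.1 reached 1 FPKM only at 48 h, and Cre09.g400515.t1.1 only there and in sta6 at 4 h. These genes thus entered the test through the time at which they were high. Without that filter all 10 were again higher, as were 3655 of 16798 genes, with 4312 lower. Cre12.g492600.t1.1 rose by 2.90 ± 0.412 (log2, SE) and was higher in 5 of 5 strains. Cre06.g299800.t1.1 rose by 2.64 ± 0.315 and Cre11.g474600.t1.1 by 2.61 ± 0.438, each also in 5 of 5 strains. The smallest fitted rise was 1.34 ± 0.236, in Cre19.g757150.t1.2. Cre09.g400515.t1.1 and Cre15.g635100.t1.1 were higher in 4 of 5 strains, the exception being CC-4349 in both. The median change of the members was 1.89, and 1.87 without Cre09.g400515.t1.1, against 0.00 for all tested genes. Cre09.g400515.t1.1 was listed at 0 in the 3 rescued strains at 4 h, so its fitted rise of 4.18 ± 0.767 depends on the value added before taking logs. In the rescued strains alone, which had no part in choosing the genes, all 10 were again higher, against 32.3% of 14527 tested genes called higher and 33.8% lower by limma in that fit. That fit was added after seeing the data, and the genes named above as entering through 48 h did so there too.

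The same 10 were higher at 48 h than at 0.5 h, where 29.3% of tested genes were called higher and 32.2% lower, with adjusted p of at most 0.000488 by limma. This contrast shares its 48 h libraries and its filter with the one above. Between 0.5 and 4 h 3 members rose, against 12.7% of tested genes called higher and 9.73% lower. Cre03.g190850.t1.1 rose by 2.12 ± 0.262 (log2, SE; limma adjusted p = 0.000306) in 5 of 5 strains. Cre03.g200450.t1.1 rose by 0.86 ± 0.245 (limma adjusted p = 0.0273) in 4 of 5 strains, and Cre12.g496400.t1.2 by 0.69 ± 0.226 (limma adjusted p = 0.0489) in 5 of 5. Only the first of these passed when sta6, STA6-C2, STA6-C4 or STA6-C6 was left out in turn. This set had no 0 h sample, so these rises are relative to 0.5 h and not to the start. In the first set Cre03.g190850.t1.1 stood at 0.5 h below its 0 h value in sta6 (0.390 times) and above it in CC-4349 (1.60 times).

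Cre03.g190850.t1.1 in the second set read 16.1, 52.3 and 130.0 FPKM in CC-4349 at 0.5, 4 and 48 h. In sta6 these times gave 3.83, 52.8 and 104 FPKM. STA6-C2 gave 12.4, 31.9 and 134, STA6-C4 9.10, 40.7 and 172 and STA6-C6 6.81, 33.5 and 135 FPKM. The 5 values at each time lay wholly above those of the time before, so this gene climbed at both steps in all strains. Cre06.g299800.t1.1 gave 3.57, 3.97 and 11.1 FPKM in CC-4349 and 0.352, 0.303 and 17.2 FPKM in sta6. The rescued strains read 1.07, 1.03 and 0.980 FPKM at 0.5 h, 1.53, 2.76 and 2.47 at 4 h and 22.4, 16.1 and 21.7 at 48 h, in the order STA6-C2, STA6-C4 and STA6-C6. All 5 values at 48 h lay above all 10 earlier ones, and at both earlier times CC-4349 was highest and sta6 lowest.

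**Figure D3:**
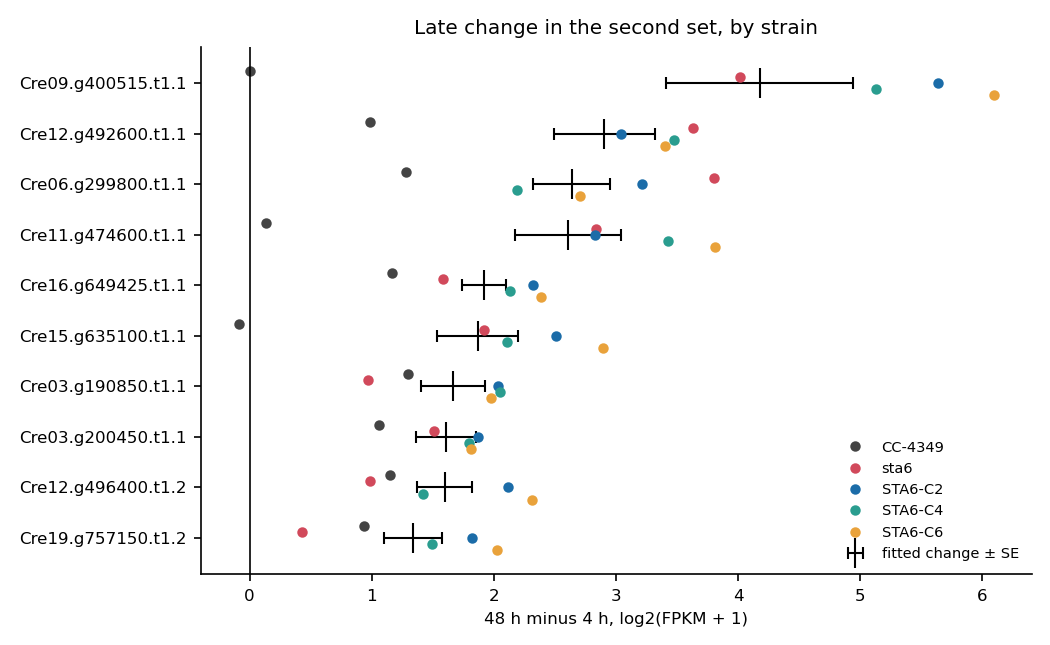
Points give the difference between 48 and 4 h in log2(FPKM + 1) for each second-set strain, and black bars the fitted change ± SE over the 5 strains, with members in order of that change. The rescued strains lie to the right of 0 for every member, whereas CC-4349 lies at 0 for Cre09.g400515.t1.1 and just below 0 for Cre15.g635100.t1.1.

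Second-set CC-4349 had the smallest median late change of the members among the 5 strains. Its 48 h to 4 h ratio of FPKM + 1 had a median of 2.08 over the 9 members other than Cre09.g400515.t1.1 and reached 4 in none of them. In sta6 the median was 2.997 and 3 of the 9 reached 4. The rescued strains had medians of 5.004, 4.31 and 5.22 (STA6-C2, STA6-C4 and STA6-C6), and 7, 6 and 7 of the 9 reached 4. Of all 14982 tested genes, between 0.954% (STA6-C4) and 1.75% (STA6-C2) reached 4 in a strain, with 1.45% in CC-4349. The median ratio of all tested genes lay between 0.863 (sta6) and 1.06 (CC-4349). Cre09.g400515.t1.1 was listed at 0 in CC-4349 at all 3 times. In the rescued strains it was listed at 0 at 0.5 and 4 h and read 48.7, 34.0 and 67.5 FPKM at 48 h. Over all 10 members the 48 h to 4 h ratio had a median of 2.03 in second-set CC-4349 and 7.13 in first-set CC-4349. It reached 4 in 0 and 9 members. In sta6 the medians were 3.39 and 6.77, with 4 and 8 members. Of all tested genes, 0.928% reached 4 in first-set CC-4349 and 0.894% in first-set sta6. The first set chose the genes, so part of its larger ratios follows from the choice. The small CC-4349 rise was seen in the second set only, and why was not tested.

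At 48 h the 3 rescued strains lay above CC-4349 for 10 of 10 members, which was so for 32.1% of all tested genes. The same order held for 2 of 10 members at 4 h (43.1% of tested genes) and 0 of 10 at 0.5 h (49.1%). The difference at 48 h passed for 7 members (limma), against 11.8% of tested genes called higher in the rescued strains and 21.0% called lower. Cre12.g492600.t1.1 had the largest difference among members detected in both, with 51.0, 66.3 and 29.3 FPKM in the rescued strains (48.9 ± 18.6, SD, n = 3) and 3.65 FPKM in CC-4349, or 3.35 ± 0.577 (log2, SE; limma adjusted p = 0.00267). Cre11.g474600.t1.1 averaged 10.6 ± 3.69 FPKM (SD, n = 3) in the rescued strains and read 1.05 FPKM in CC-4349. Cre15.g635100.t1.1 averaged 6.09 ± 1.60 FPKM (SD, n = 3) against 0.730 FPKM. Cre03.g190850.t1.1, Cre03.g200450.t1.1 and Cre19.g757150.t1.2 did not pass, with differences of 0.16, 0.42 and 0.38 (log2). The calls for Cre06.g299800.t1.1 and Cre16.g649425.t1.1, at 0.79 and 0.78, were lost under 2 and 1 of 9 alternatives.

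The difference in the change itself, from 4 to 48 h in the rescued strains minus that in CC-4349, was a comparison added after seeing the values. It passed for 5 members, against 8.00% of tested genes called higher and 16.3% called lower by limma. These were Cre06.g299800.t1.1, Cre09.g400515.t1.1, Cre11.g474600.t1.1, Cre15.g635100.t1.1 and Cre16.g649425.t1.1. The call for Cre16.g649425.t1.1 was lost under 2 of 9 alternatives, while Cre12.g492600.t1.1, not among them, passed under 2 of 9. Cre11.g474600.t1.1 went from 0.864 to 1.05 FPKM in CC-4349 between 4 and 48 h, while the rescued strains went from 0.0747, 0.12 and 0.0683 to 6.65, 11.0 and 13.98 FPKM, a difference of 3.22 ± 0.419 (log2, SE; limma adjusted p = 0.000477). The values at 48 h do not overlap, and at 4 h those of the rescued strains were all below CC-4349. The fit takes the spread among the rescued strains also for the lone CC-4349 library of each time, so these p-values do not show how CC-4349 varies between cultures.

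Loss of STA6 was addressed by setting the rescued strains against sta6. At 48 h the 3 rescued strains lay above sta6 for 7 of 10 members, beside 55.0% of tested genes. In the fit 1 difference passed, against 0.988% of tested genes called higher and 0.607% called lower by limma. This was Cre19.g757150.t1.2, with 19.4, 23.3 and 30.6 FPKM in the rescued strains (24.4 ± 5.69, SD, n = 3) and 9.39 FPKM in sta6, or 1.27 ± 0.261 (log2, SE; limma adjusted p = 0.0462). The call missed the threshold under 6 of 9 alternatives, with adjusted p by limma from 0.0152 to 0.121, quantile normalization and equal medians among them. Without STA6-C4 its adjusted p by limma was 0.0915, and without STA6-C6 0.121. The median difference of the members was 0.73, beside 0.15 for all tested genes. Between 4 and 48 h none of the 10 changes differed between rescued strains and sta6 after adjustment by limma, and 6 did at an unadjusted p below 0.05 (19.8% of tested genes did, in either direction), with differences from -1.10 in Cre06.g299800.t1.1 to 1.60 in Cre09.g400515.t1.1. Of all tested genes, 0.888% were called higher and 0.941% lower there. A single sta6 library stood at each time, so the SE and p of these differences take the spread from the rescued strains, the call for Cre19.g757150.t1.2 has no sta6 replicate behind it, and a missed threshold does not show equal levels.

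**Figure D4:**
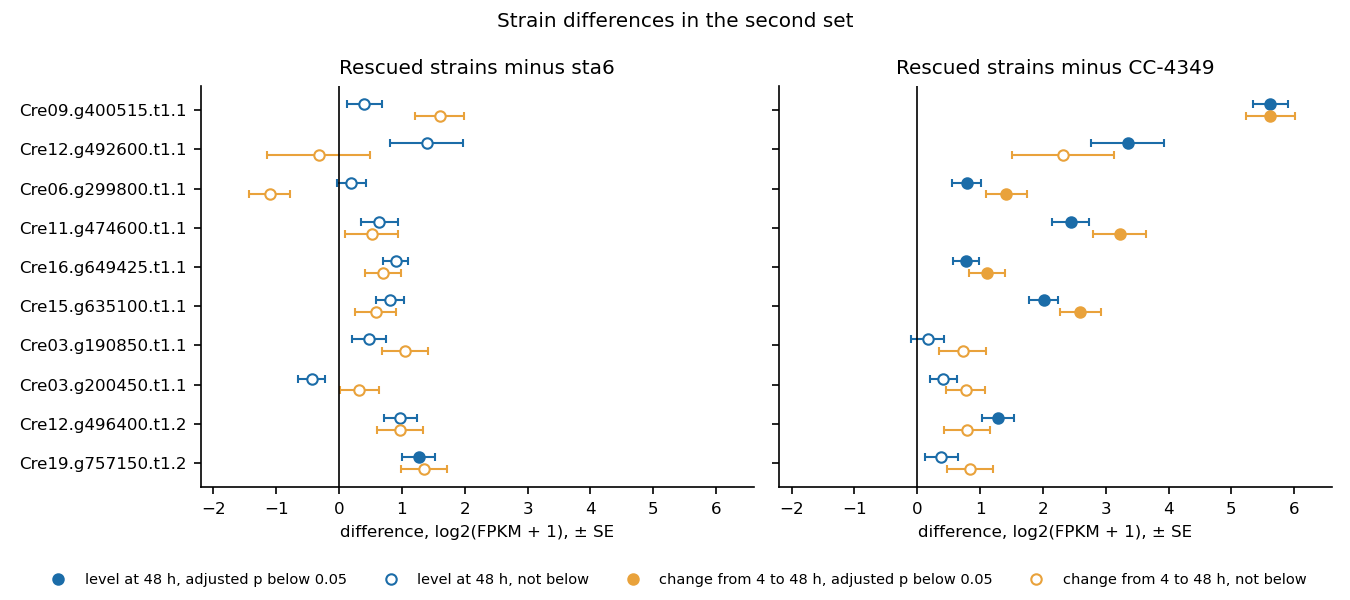
Each row is a member, and points are fitted differences between the rescued strains and sta6 (left) or CC-4349 (right) in log2(FPKM + 1) ± SE, blue for the level at 48 h and orange for the change from 4 to 48 h. Filled points have a limma adjusted p below 0.05. Against CC-4349 7 blue and 5 orange points are filled, and against sta6 1 blue point.

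In sta6 the members' ratio of FPKM + 1 in the first set to that in the second ran from 1.01 to 25.5 at 48 h. Its median was 1.97, where the median of all tested genes was 1.16. At 4 h the members' median was 1.14, beside 0.992 for all tested genes. At 0.5 h, a time the rule did not use, it was 1.32, beside 0.824. The rule chose genes by high first-set values at 24 and 48 h, so part of the direction at 48 h follows from the choice. The higher members' median at 0.5 h was not tested. Cre11.g474600.t1.1 differed most at 48 h, with 181 FPKM in the first set and 6.14 FPKM in the second, and Cre06.g299800.t1.1 least, with 17.3 and 17.2 FPKM. What sets the libraries of both sets apart was not tested.

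Position was examined for the 7 members with a locus tag. Of their 14 neighbours in gene order, 12 were tested, of which 5 rose and 2 fell from 4 to 48 h in the second set by limma, beside the shares of 23.8% and 28.0% of all genes. The largest rise of a neighbour was in Cre12.g492650.t1.1, next to Cre12.g492600.t1.1, which is named here after its values were seen. It went from 2.80 to 18.8 FPKM between 4 and 48 h in second-set CC-4349, from 1.14 to 22.2 FPKM in sta6 and from 3.78 to 35.0, 4.19 to 53.6 and 1.04 to 33.8 FPKM in STA6-C2, STA6-C4 and STA6-C6 (3.24, log2; limma adjusted p = 1.47e-05). In the first set its late ratio was 5.03 in CC-4349 and 5.66 in sta6, and it missed the rule by an early ratio of 2.36 in CC-4349. Whether reads are shared between these 2 genes was not tested. Cre03.g190800.t1.1, next to Cre03.g190850.t1.1, changed in the opposite direction, by -4.20 (log2; limma adjusted p = 5.93e-07).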

How the data were processed

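RNA sequencing of 31 samples was analysed, 16 in the first library set and 15 in the second; strain and time come from GEO's labels. The deposited values were read as FPKM, since their header names no unit; RPKM would look the same. The submitters' processing notes name Bowtie; no source used here gives its version, the genome build, the annotation or the counter. Sequencing depth is unknown, so no counting interval is given. Paired columns of a first-set sample were averaged as repeat runs. On log2(FPKM + 1), limma 3.58.1 (R 4.3.3; trend and robust options on) was fitted to second-set genes with 1 FPKM or more in 3 or more libraries. P-values were adjusted by Benjamini-Hochberg over every tested gene, with a threshold of 0.05. Times were compared with strain as a block (8 residual degrees of freedom), and strain classes in a model of class by time (6). On this scale the change of a low gene is understated. No source ties samples to separate cultures, so p-values measure only the spread between the samples, which may be technical. The comparison of 48 with 4 h was run on simulated data, with changes added only to genes above the median level. That run covers neither low genes nor the model of class by time. The members, contrasts and lists were chosen with earlier results of these data known. Lists of genes by role were planned but could not be filled, because the reference gives none of its 17742 genes a symbol other than the locus tag. The STA6 gene was therefore not checked. The rule for named genes took the members with the largest and smallest change from 4 to 48 h, those nearest the late limit and those of highest level, with at most 2 unannotated IDs for each; since there were only 10 members, all are named, beyond that rule. Python 3.11.15, numpy 2.4.6 and pandas 2.3.3 were used elsewhere.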

Additional observations from a re-analysis of the deposited data

Results flagged for a closer look

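For 5 members the change from 4 to 48 h differed between the rescued strains and CC-4349 in the second set by the fit of that difference itself. The difference (rescued minus CC-4349, log2 of FPKM + 1) was 1.42 in Cre06.g299800.t1.1, 5.62 in Cre09.g400515.t1.1, 3.22 in Cre11.g474600.t1.1, 2.59 in Cre15.g635100.t1.1 and 1.11 in Cre16.g649425.t1.1. The value for Cre09.g400515.t1.1 depends on the 1 added before taking logs, since the gene was listed at 0 in CC-4349 at all times and in the rescued strains at 4 h. For Cre16.g649425.t1.1 the difference ranged from 0.52 to 1.83 over 9 alternatives, and its call was lost under 2 of them. In first-set CC-4349, whose values helped to choose the genes, the members' median 48 h to 4 h ratio was 7.13, against 2.03 in the second set. CC-4349 had 1 second-set library per time, and the source of the difference was not tested.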

How the results depend on the processing

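The 10 rises from 4 to 48 h and from 0.5 to 48 h in the second set all passed under each of the 13 alternatives. The number of genes meeting the rule was 6 when 5 was added to FPKM, with 2 of the 10 among them, and between 7 and 12 under the 7 other settings. From 0.5 to 4 h the 3 calls became 1 with quantile normalization and with a pseudocount of 5, 5 in the rescued strains alone, and 1 to 4 when strains were left out in turn. For rescued strains against sta6 at 48 h the single call became 0 with quantile normalization, equal medians, no filter or neither trend nor robust fitting, 2 with a pseudocount of 5, and 0 to 1 without a rescued strain, the 1 without STA6-C6 being another gene than Cre19.g757150.t1.2. For the change from 4 to 48 h against sta6 the 0 calls became 2 with a pseudocount of 0.1 and 1 with 5. Without a rescued strain the calls against CC-4349 numbered 6 to 7 for the level and 4 to 6 for the change. With a pseudocount of 0.1 fewer members were called against CC-4349, for the level and for the change. Small changes without a call turned sign. From 0.5 to 4 h, Cre15.g635100.t1.1 ranged from -0.043 to 0.188 with a strain left out (lowest without CC-4349) and was -0.059 in rescued strains alone, and Cre19.g757150.t1.2 ranged from -0.130 to 0.081 (above 0 without CC-4349 or STA6-C2) and was 0.048 in rescued strains alone. At 48 h against CC-4349, Cre03.g190850.t1.1 was -0.012 with quantile normalization. In the change against sta6, Cre11.g474600.t1.1 was -0.19 and Cre15.g635100.t1.1 -0.10 with a pseudocount of 0.1, and Cre12.g492600.t1.1 0.52 with 5. The causes were not tested. Over all genes, quantile normalization moved the calls from 4 to 48 h from 3560 higher and 4188 lower to 4685 and 3694, against CC-4349 at 48 h from 1763 and 3145 to 2536 and 2572, and against sta6 at 48 h from 148 and 91 to 83 and 149. The labels carry no replicate numbers. The unknown depth limits the low members most.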

Other observations

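Over the 15 second-set libraries, Pearson's r between members in log2(FPKM + 1) ran from 0.70 (Cre03.g190850.t1.1 and Cre09.g400515.t1.1) to 0.98 (Cre11.g474600.t1.1 and Cre15.g635100.t1.1). These libraries share 3 times and 5 strains, so the values describe the common late rise and no more.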
